A study of Mus musculus with 26 samples.

Results

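Notch pathway genes, 9 of the 22941 genes tested in the table of all deletions, were followed through XY gonads of mouse embryos at E13.5, a stage of fetal life when testis cords have formed. They were the receptors Notch1, Notch2 and Notch3, the ligand Jag1, and the target genes Hes1, Hey1, Hey2, Heyl and Nrarp, chosen by their names as members of the pathway, with earlier results of these data known. All 9 passed the filter on low counts in both tables of counts. Polyadenylated RNA of whole gonads, dissected away from the mesonephros, had been sequenced in 26 samples. Wild type (WT) had 3 samples and a Meis1 knockout (Meis1 KO) had 4. The other samples carried Fgf9 genotypes named as deletions, 3 of Δ306, 6 of Δ225, 4 of Δ104 and 6 of Δ93. All embryos were labelled XY. Where the deletions start and end, whether 1 or both alleles carried them and the strain are not in the labels. Samples of Δ225, Δ104, Δ93 and Meis1 KO are named biological replicates and those of WT and Δ306 only numbered. The sample identifiers of WT and Δ306 also run apart from those of the other groups. Whether all were prepared together is not in the labels, so preparation and genotype cannot be told apart between these sets. No litter or animal is named, so the p-values measure the spread between these samples. Fgf9 encodes a secreted growth factor of the fetal testis and Meis1 a homeobox transcription factor.

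Notch receptors are membrane proteins that are cut when a ligand on a neighbouring cell, such as JAG1, binds them. The freed intracellular part joins the DNA-binding protein RBPJ and switches on repressors of the Hes and Hey families and Nrarp, which encodes a feedback inhibitor of the pathway. In the fetal testis, Notch signalling keeps interstitial progenitors from becoming steroid-producing Leydig cells, and JAG1 is known there as a ligand on interstitial cells. Notch3 and Heyl are also known as genes of the mural cells that wrap blood vessels, and Notch1 as a gene of endothelium.

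Promoter sequence from the RefSeq table (GRCm38.p6) was found for 6 of the 9 genes, and not for Hes1, Hey1 and Heyl. The stretches before the start sites of Jag1 and Notch3, whose RNA differed most between groups among the genes with an entry, and of Hey2 are given here, 5′ to 3′ on the gene's strand. Each begins 250 bases before the RefSeq start. The Notch3 stretch runs up to the start, while the Jag1 stretch, of 126 bases, ends 125 bases before it and the Hey2 stretch, of 232 bases, ends 19 bases before it. Capitals mark the core of the RBPJ motif, TGGGAA, or a motif of HES and HEY repressors, CACGNG, on either strand. The Jag1 stretch lay at chr2:137116645-137116770 (minus strand), the Notch3 stretch at chr17:32166891-32167140 (minus strand) and the Hey2 stretch at chr10:30842802-30843033 (minus strand).
Jag1: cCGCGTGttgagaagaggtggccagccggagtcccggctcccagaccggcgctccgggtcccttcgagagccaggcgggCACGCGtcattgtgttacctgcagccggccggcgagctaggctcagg
Notch3: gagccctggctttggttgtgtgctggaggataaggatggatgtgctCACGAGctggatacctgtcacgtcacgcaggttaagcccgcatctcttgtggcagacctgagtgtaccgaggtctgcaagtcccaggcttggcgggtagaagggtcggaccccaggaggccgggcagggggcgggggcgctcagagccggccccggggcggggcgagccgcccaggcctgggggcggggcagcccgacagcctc
Hey2: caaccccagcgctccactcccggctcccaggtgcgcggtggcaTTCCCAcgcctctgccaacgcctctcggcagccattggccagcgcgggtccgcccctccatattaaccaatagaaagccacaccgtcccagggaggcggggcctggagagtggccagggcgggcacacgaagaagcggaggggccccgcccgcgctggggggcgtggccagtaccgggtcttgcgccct
Within 250 bases before the start, TGGGAA was found in 1 of the 6 promoters, that of Hey2, 207 bases before the start and on the strand opposite to the gene. It was found in 21.6% of all 32851 promoters in the table. CACGNG was found before Jag1 (249 and 171 bases before the start), Notch3 (204), Notch2 (42) and Nrarp (108), and in 23.5% of all promoters. The other genes lie, on GRCm38, at chromosome 2, 26457903 to 26516663, minus strand (Notch1), chromosome 3, 98013527 to 98150361, plus strand (Notch2), chromosome 2, 25180758 to 25183339, plus strand (Nrarp), chromosome 16, 30064384 to 30067796, plus strand (Hes1), chromosome 3, 8663359 to 8667256, minus strand (Hey1), and chromosome 4, 123233556 to 123249875, plus strand (Heyl).

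Library totals were 11.58 to 53.39 M counts (median 36.7) in the table of all deletions with WT, and 35.47 to 51.73 M in the table of WT and Meis1 KO. Levels are given as CPM, the count of a gene scaled to the size of its library. Fgf9 was at 9.21 to 9.85 CPM in WT, 2.17 to 2.94 in Δ306, 2.30 to 4.75 in Δ93, 2.72 to 6.98 in Δ104 and 3.69 to 16.5 in Δ225, and Meis1 fell from 62.1 to 109 CPM in WT to 0.201 to 0.695 in Meis1 KO. Several libraries stood apart. RNA of 4 Y-linked genes (Ddx3y, Eif2s3y, Kdm5d, Uty), summed, was 31.2 to 77.2 CPM in WT but under 0.25 of the lowest WT library in 12 of the 22 libraries of the first of these tables and in 2 of 4 Meis1 KO libraries. The 12 were all 6 Δ93 libraries, Δ104 replicates 1, 2 and 3, Δ225 replicates 3 and 4, and Δ306 replicate 3. In 4 of them (Δ306 replicate 3, Δ225 replicate 4, Δ93 replicates 4 and 5) the sum was under 1 CPM, against the XY label. It was lowest in Δ93 replicate 4 (0.0265 CPM), which also had the most Xist of any library, 6.42 CPM. Xist was at 0.671 CPM in Δ306 replicate 3, 0.177 in Δ225 replicate 4 and 0.226 in Δ93 replicate 5. Calls of the 9 genes that rest on the 4 libraries are given with and without them, while levels, marker sums and ratios are given for all libraries. Germ-cell markers summed to 13.1 CPM in WT replicate 1 against 417 and 604 in the other WT libraries, and that replicate had the highest WT level of Notch1, Notch2, Notch3, Jag1 and Nrarp. Blood markers summed to 52274 and 58181 CPM in Δ93 replicates 1 and 4, against 5254 to 8951 in the other 4 Δ93 libraries. They summed to 13240 to 16271 CPM in WT of the same table, and their part in the levels was not tested. Sertoli, germ-cell and interstitial markers of the gonad were detected in every group.

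Per kilobase of exon, the order of the mean levels in WT was Notch3 (23.4 ± 2.89 CPM per kb, SD, n = 3), Heyl (21.9 ± 0.961), Notch2 (19.6 ± 4.58), Hes1 (17.6 ± 1.49), Jag1 (11.6 ± 3.05), Hey1 (9.96 ± 2.09), Notch1 (4.39 ± 1.41), Hey2 (1.45 ± 0.208) and Nrarp (0.841 ± 0.106). Neighbours from Notch3 to Hes1, and Jag1 and Hey1, did not differ beyond their SDs. Of the receptors, Notch3 had more RNA per length than Notch1 in WT. In Δ93 the order changed: Hes1 (19.4 ± 4.75 CPM per kb, n = 6) led, followed by Notch2 (13.8 ± 2.63) and Hey1 (9.75 ± 2.60), then Notch3 (7.82 ± 1.78), Heyl (4.87 ± 1.5), Notch1 (2.22 ± 0.684), Jag1 (2.14 ± 0.610), Nrarp (0.658 ± 0.239) and Hey2 (0.564 ± 0.146). In this order the neighbours from Hes1 to Heyl, Notch1 and Jag1, and Nrarp and Hey2 did not differ beyond their SDs.

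**Figure D1:**
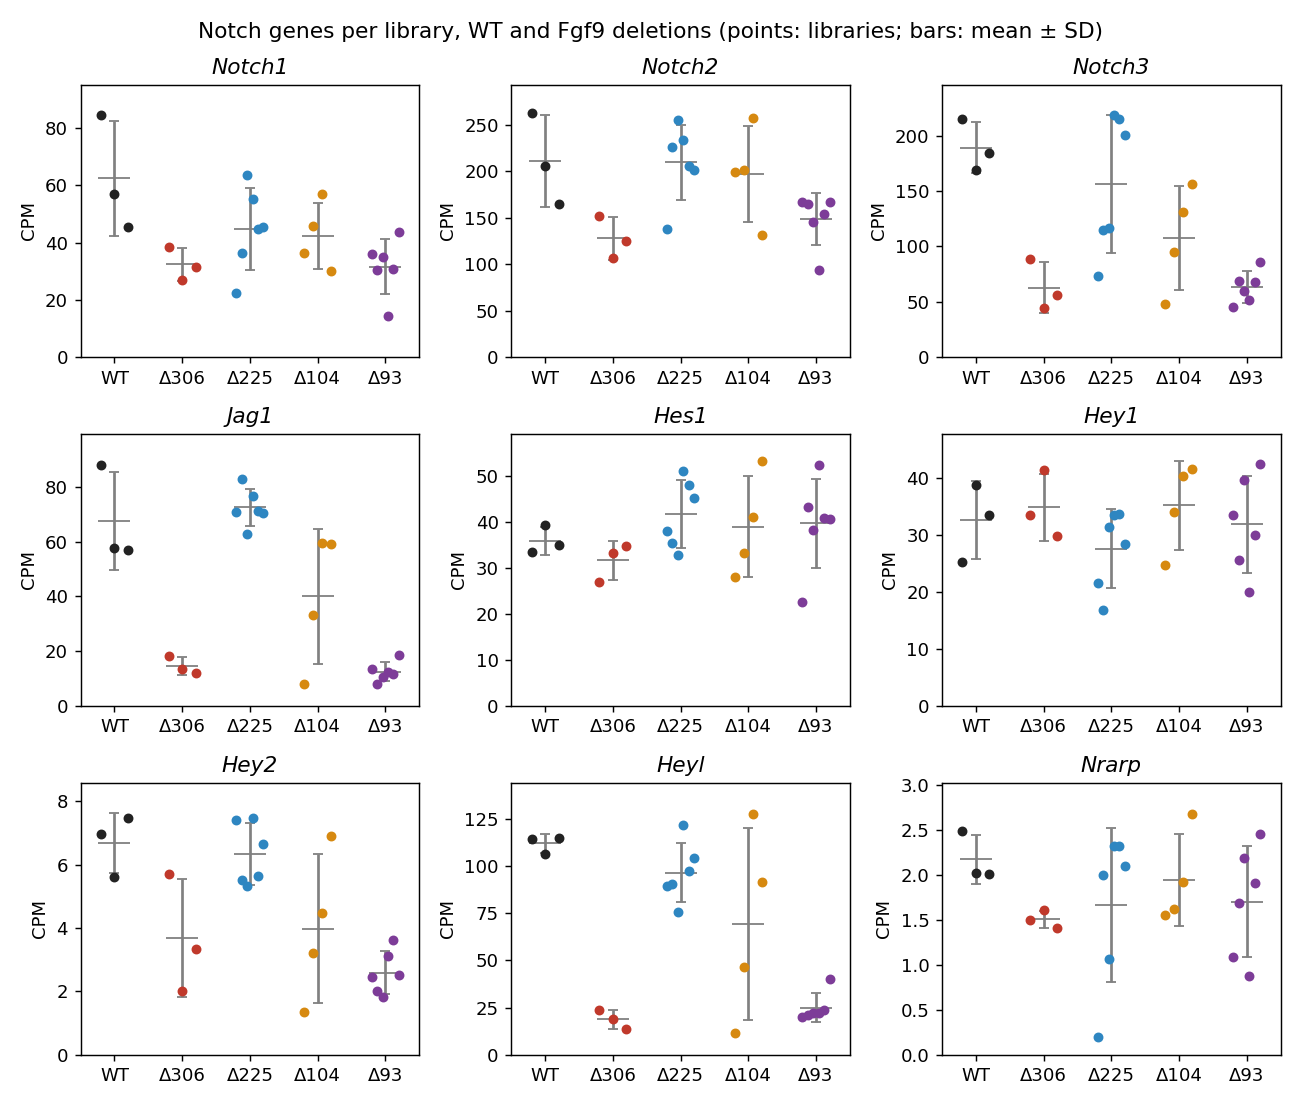
CPM of the 9 Notch genes in each library of WT and the 4 Fgf9 deletions, with 1 point per library and bars for the mean ± SD of each group (WT and Δ306 n = 3, Δ104 n = 4, Δ225 and Δ93 n = 6). Jag1 and Heyl are low in every Δ306 and Δ93 library and range from low to WT-like in Δ104, while Hes1 and Hey1 overlap between WT and every deletion.

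Jag1, the Notch ligand, fell in the gonads of 2 deletions, Δ306 and Δ93. Jag1 was at 88.1, 57.7 and 56.9 CPM in WT and at 18.1, 13.3 and 12.2 in Δ306. In Δ93 the lowest, median and highest libraries were at 8.11, 12.05 and 18.7 CPM. Every Δ306 and Δ93 library lay below every WT library. The log2 fold change against WT was -2.22 in Δ306 (SE 0.45, adjusted p = 0.00821) and -2.44 in Δ93 (SE 0.36, adjusted p = 6.45e-04), by edgeR's quasi-likelihood test with Benjamini-Hochberg adjustment over all genes. In Δ225 Jag1 was at 62.8 CPM in the lowest library, 71.2 in the median and 83.0 in the highest. These libraries lay within the WT range, and the difference, 0.10 on the log2 scale (SE 0.37, adjusted p = 0.908), was not called. The Δ104 libraries were at 7.83, 33.3, 59.7 and 59.3 CPM, so replicate 1 was below every Δ306 library and replicates 3 and 4 were inside the WT range. The log2 fold change of Δ104 against WT, -0.76 (SE 0.40, adjusted p = 0.355), was not called.

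Of the receptors, Notch3 fell in both Δ306 and Δ93 and Notch1 in Δ93. Notch3 was at 215, 169 and 184 CPM in WT and at 88.2, 43.9 and 55.8 in Δ306. In Δ93 it was at 45.4 CPM in the lowest library, 63.8 in the median and 86.2 in the highest. Neither group overlapped WT. The log2 fold change against WT was -1.60 in Δ306 (SE 0.40, adjusted p = 0.0227) and -1.58 in Δ93 (SE 0.33, adjusted p = 0.0036). In Δ225 it was at 73.5, 114.6 and 116.7 CPM in replicates 1 to 3 and at 218, 215 and 200 CPM in replicates 4 to 6, and the group's log2 fold change was -0.27 (adjusted p = 0.687). Replicates 1 to 3 also had fewer counts (11.58 to 23.32 M, against 41.26 to 46.82 M in replicates 4 to 6) and lower sums of Sertoli markers (518 to 808 CPM, against 1691 to 2125), and the part of either in the level of Notch3 was not tested. In Δ104 Notch3 was at 47.8, 94.6, 131 and 156 CPM, all below the lowest WT library, and the difference of -0.82 on the log2 scale (SE 0.36, adjusted p = 0.289) was not called.

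Notch1 was at 84.6, 57.1 and 45.6 CPM in WT and, in Δ93, at 14.3 in the lowest library, 32.8 in the median and 43.6 in the highest. The 2 groups did not overlap, by a margin that was small against the spread within WT. On the log2 scale the difference was -0.98 (SE 0.29, adjusted p = 0.0303). Without WT replicate 1, the highest WT library and the one low in germ-cell markers, it was -0.70 with an adjusted p of 0.214. The call was also lost without WT replicate 2 (adjusted p = 0.0669) and without Δ93 replicate 2, 4 or 5 (0.0528, 0.0515 and 0.0543). In Δ306 Notch1 was at 38.5, 26.9 and 31.5 CPM, and its log2 fold change of -0.95 (SE 0.35, adjusted p = 0.111) was not called. Notch2 had the smallest log2 fold changes of the receptors against WT, at -0.73 in Δ306 (SE 0.25, adjusted p = 0.0886), -0.51 in Δ93 (SE 0.21, adjusted p = 0.12), -0.10 in Δ104 and -0.01 in Δ225, none called.

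Among the target genes, Heyl fell in Δ306 and Δ93 and Hey2 in Δ93, while Hes1, Hey1 and Nrarp did not pass the test in any deletion. Heyl, which encodes a HEY-family repressor, was at 115, 106 and 115 CPM in WT and at 23.9, 18.6 and 13.8 in Δ306. In Δ93 it was at 19.9 CPM in the lowest library, 22.1 in the median and 40.3 in the highest. No Δ306 or Δ93 library overlapped WT. Heyl's log2 fold change was -2.58 in Δ306 (SE 0.50, adjusted p = 0.00685) and -2.17 in Δ93 (SE 0.39, adjusted p = 0.00163). In Δ225 Heyl ranged from 75.8 to 122 CPM around a median of 94.0 and was -0.21 from WT on the log2 scale (adjusted p = 0.807). The Δ104 libraries were at 11.7, 46.6, 128 and 91.7 CPM. They ran from below the lowest Δ306 library to above the highest WT library, and their log2 fold change of -0.69 (SE 0.44, adjusted p = 0.428) was not called.

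Hey2, another HEY repressor, was much less abundant, at 6.96, 5.61 and 7.46 CPM in WT. In Δ93 it was at 1.82, 2.49 and 3.61 CPM in the lowest, median and highest libraries, below all WT libraries. On the log2 scale Hey2 was -1.37 from WT (SE 0.35, adjusted p = 0.0134). Leaving out WT replicate 1 or WT replicate 3 raised the adjusted p to 0.051 and 0.0538 and ended the call. In Δ306 Hey2 was at 5.70, 2.02 and 3.32 CPM, the first of them inside the WT range, and the change of -0.86 on the log2 scale (SE 0.42, adjusted p = 0.24) was not called. Hey2 in Δ104 was at 1.33, 3.19, 4.48 and 6.91 CPM, again from low to WT-like.

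Hes1, the widely used reporter gene of Notch activity, was at 33.3, 39.2 and 34.9 CPM in WT. It ranged from 26.8 to 34.7 CPM in Δ306, 32.8 to 51.0 in Δ225, 28.0 to 53.2 in Δ104 and 22.6 to 52.4 in Δ93. Every deletion overlapped WT, and the log2 fold changes lay between -0.18 (SE 0.25) in Δ306 and 0.22 (SE 0.22) in Δ225, none called. Hey1 was at 25.3, 38.8 and 33.5 CPM in WT and at 16.8 to 42.5 CPM over all deletions. Its log2 fold changes lay between -0.24 (SE 0.24) in Δ225 and 0.11 (SE 0.26) in Δ104, none called. Nrarp was near the low end of detection at 2.00 to 2.49 CPM (76 counts or more) in WT and 1.41 to 1.61 in Δ306, groups that did not overlap. Its log2 fold change in Δ306, -0.53 (SE 0.51, adjusted p = 0.594), was not called, and Δ225 replicate 1 held 2 counts of it.

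In all, 3 of the 9 genes were called in Δ306 against WT, all lower, where 6.43% of all genes were called and 3.46% were called lower. In Δ93 against WT 5 of 9 were called, all lower, against 14.1% of all genes called and 6.84% called lower. The groups did not overlap for 6 of 9 genes in Δ306 and 5 of 9 in Δ93, against 37.6% and 24.7% of all genes. The median log2 fold change of the 9 genes was -0.86 in Δ306 and -0.98 in Δ93, where the medians of all genes were 0.08 and 0.06. In Δ225 against WT none of the 9 was called by edgeR or DESeq2, none was at an unadjusted p under 0.05 and none had groups that did not overlap (0.209% of all genes were called, 10.1% did not overlap). In Δ104 against WT none was called by either tool, 1 (Notch3) was at an unadjusted p under 0.05 and did not overlap (0.061% called, 18.1% not overlapping), and the medians were -0.56 for the 9 genes and 0.06 for all genes. The 4 comparisons share the same 3 WT libraries.

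These counts depended on the libraries low in Y-linked RNA. Without the 4 libraries under 1 CPM, none of the 9 genes was called in Δ306 against WT, though the log2 fold changes were -2.15 for Jag1 (adjusted p = 0.0831), -2.44 for Heyl (0.0737) and -1.56 for Notch3 (0.125), and 102 genes in all were called instead of 1474. That left 2 Δ306 libraries. Without all 12 libraries under 0.25 of the lowest WT library, Jag1 and Heyl were called in Δ306 and Notch3 was not (-1.52, adjusted p = 0.174), and no Δ93 library was left to compare. In the separate table that holds WT and Δ306 alone, where all 3 Δ306 libraries were used, the same 3 genes were called, with adjusted p-values of 0.00235 (Jag1), 8.22e-04 (Heyl) and 0.00828 (Notch3). In Δ93 against WT, Jag1, Heyl, Notch3 and Hey2 stayed called without the 4 libraries and Notch1 did not (log2 fold change -0.84, adjusted p = 0.10). Δ225 replicate 4, with 0.199 CPM of Y-linked RNA, had 76.6 CPM of Jag1 and 122 CPM of Heyl, levels inside or above the WT range.

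**Figure D2:**
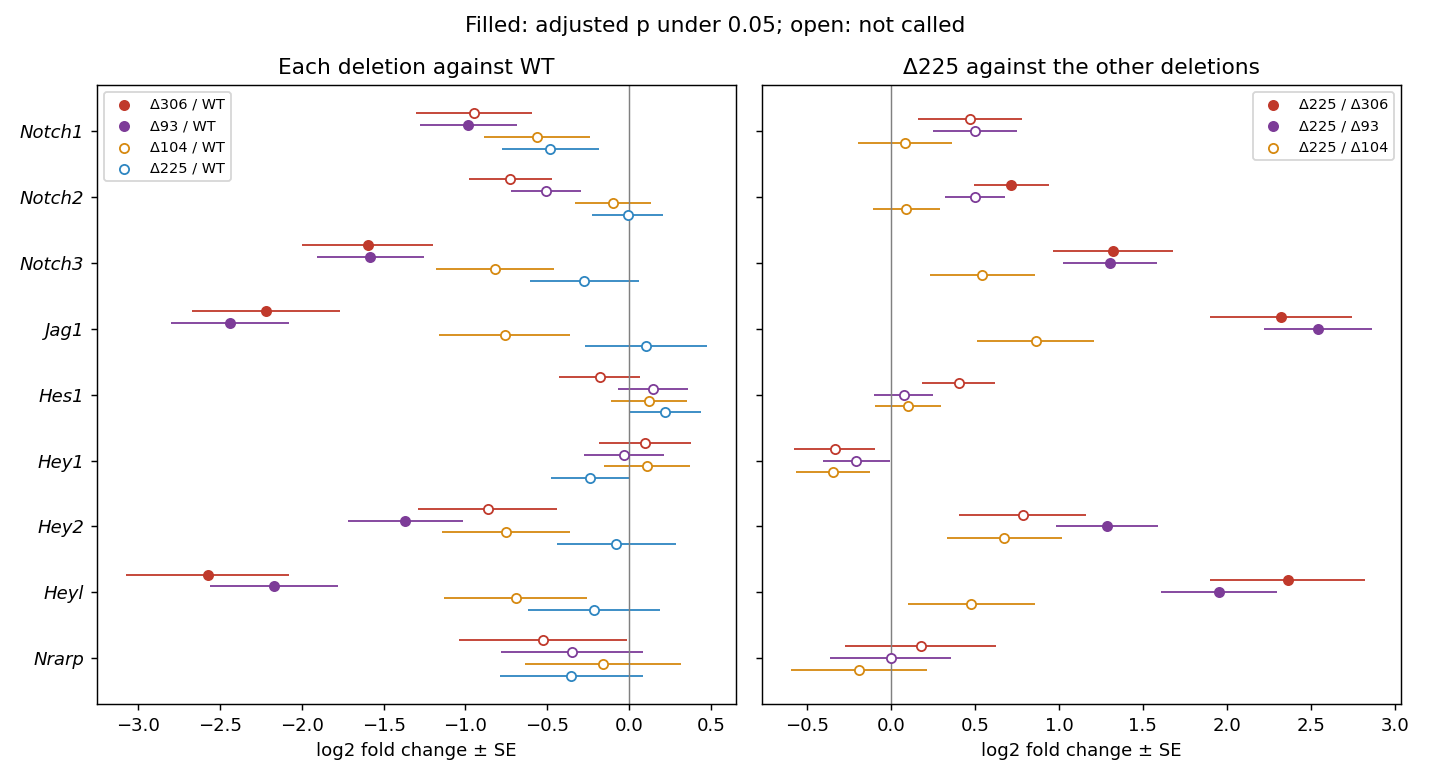
Log2 fold changes ± SE of the 9 genes, each deletion against WT (left) and Δ225 against the other deletions (right), with filled points for adjusted p under 0.05 and open points for genes not called. Jag1, Heyl and Notch3 lie left of 0 in Δ306 and Δ93 against WT and right of 0 in Δ225 against both, and no gene is called in Δ225 or Δ104 against WT.

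The deletions were also compared with one another. Δ225 gonads had more Jag1, Heyl and Notch3 RNA than those of Δ93 and of Δ306. Against Δ93 the log2 differences were 2.54 for Jag1 (SE 0.32, adjusted p = 4.08e-05), 1.95 for Heyl (SE 0.35, adjusted p = 5.13e-04), 1.31 for Notch3 (SE 0.28, adjusted p = 0.00245) and 1.29 for Hey2 (SE 0.30, adjusted p = 0.00483). These 4 of 9 genes were called higher where 20.8% of all genes were called and 9.96% were called higher. Jag1, Heyl and Hey2, 3 of the 9 genes, did not overlap between Δ225 and Δ93, where 11% of all genes did not. Notch3 overlapped, since its lowest Δ225 library, at 73.5 CPM, lay below the highest Δ93 library, at 86.2. All 4 remained called in each of the 19 alternatives run.

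Against Δ306 the log2 differences of Δ225 were 2.32 for Jag1 (SE 0.42, adjusted p = 0.00162), 2.36 for Heyl (SE 0.46, adjusted p = 0.00269), 1.32 for Notch3 (SE 0.36, adjusted p = 0.0198) and 0.72 for Notch2 (SE 0.22, adjusted p = 0.0387). Again 4 of 9 genes were called higher, where 13.2% of all genes were called and 6.47% were called higher. Jag1 and Heyl, 2 of the 9, did not overlap, against 20.2% of all genes. Jag1 remained called in all 17 alternatives, Heyl lost its call in 1 of them, Notch2 in 10 and Notch3 in 6. Without the 4 libraries under 1 CPM of Y-linked RNA only Jag1 was called, and the values of the others were 2.12 for Heyl (adjusted p = 0.0677), 1.14 for Notch3 (0.17) and 0.68 for Notch2 (0.161).

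Between Δ93 and Δ306 the log2 differences of the 9 genes ran from -0.50 for Hey2 (SE 0.36) to 0.41 for Heyl (SE 0.42). None was called by edgeR or DESeq2 or was at an unadjusted p under 0.05 (0.0785% of all genes were called). In Δ93 against Δ104 none of the 9 was called by edgeR (0.0523% of all genes were), 3 were at an unadjusted p under 0.05, and DESeq2 called 2, Jag1 and Heyl, whose edgeR log2 differences were -1.68 (adjusted p = 0.0704) and -1.48 (adjusted p = 0.101). In Δ104 against Δ306 none was called by edgeR (0.0654% of all genes were), 4 were at an unadjusted p under 0.05, and DESeq2 called the same 2 genes, with edgeR log2 differences of 1.46 for Jag1 (adjusted p = 0.179) and 1.88 for Heyl (adjusted p = 0.121). In Δ225 against Δ104 none was called by either tool (0.645% of all genes were), and Jag1, at 0.86 (SE 0.35, adjusted p = 0.353), was the 1 gene at an unadjusted p under 0.05 and the 1 without overlap, where 1.67% of all genes did not overlap.

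Without the 4 libraries under 1 CPM of Y-linked RNA, the log2 differences of Jag1 and Heyl were -1.66 and -1.43 in Δ93 against Δ104 (adjusted p = 0.546 for both) and 1.34 (0.652) and 1.70 (0.598) in Δ104 against Δ306. Without all 12 low in it, which left 1 Δ104 library, Jag1 and Heyl were called in Δ104 against Δ306, at 1.91 (adjusted p = 0.0378) and 2.11 (0.00772). Δ104 replicate 1 also weighed on those comparisons. Without it, Jag1 and Heyl were called in Δ93 against Δ104 at -1.999 (adjusted p = 4.4e-05) and -1.80 (adjusted p = 3.86e-04), and in Δ104 against Δ306 at 1.79 (adjusted p = 0.0025) and 2.23 (adjusted p = 0.00149). That library also had the lowest sums of interstitial progenitor, fetal Leydig and Sertoli markers of the Δ104 group (524, 42.4 and 41.0 CPM, against highest values of 1719, 1669 and 1878).

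Because whole gonads were sequenced, fewer cells of a type and less RNA per cell cannot be told apart. The sums of interstitial progenitor and mural markers lay below WT in every Δ306 and Δ93 library, as Jag1, Heyl and Notch3 did. Endothelial sums lay below WT in every Δ306 and Δ93 library too, and ran from 305 to 629 CPM in Δ225. The part of these markers in the differences was not tested. The summed CPM of 5 interstitial progenitor markers (Nr2f2, Tcf21, Pdgfra, Maf, Wnt5a) was 1306 to 1561 in WT, 494 to 714 in Δ306, 568.5 to 664 in Δ93, 1222 to 1611 in Δ225 and 524 to 1719 in Δ104. Of the 5 markers, 3 were called lower in Δ306 and 4 in Δ93 against WT. The 7 mural markers summed to 433 to 628 CPM in WT, 137 to 255 in Δ306, 165 to 302 in Δ93, 371 to 687 in Δ225 and 154 to 484 in Δ104, with 3 called lower in Δ306 and 3 in Δ93. The 8 endothelial markers summed to 520 to 741 CPM in WT, 335 to 494 in Δ306, 357 to 494 in Δ93, 305 to 629 in Δ225 and 362 to 487 in Δ104, with 1 and 2 called lower.

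The steroid-producing lineage and the supporting cells moved as well. The 7 fetal Leydig markers summed to 930 to 1606 CPM in WT, 43.0 to 95.3 in Δ306, 55.6 to 324 in Δ93, 469 to 3127 in Δ225 and 42.4 to 1669 in Δ104, and 4 and 6 of them were called lower in Δ306 and Δ93. Sertoli markers summed to 1876 to 2336 CPM in WT, 88.1 to 489 in Δ306 and 58.1 to 833 in Δ93, with none of 7 called in Δ306 by edgeR (2 at an unadjusted p under 0.05) and 2 called lower in Δ93. Pre-granulosa markers summed to 64.4 to 112 CPM in WT, 378 to 737 in Δ306 and 430 to 1088 in Δ93, with 5 and 6 of 6 called higher. No marker of these lists was at 0 in all libraries of any group.

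The levels were also set against the sums of 2 marker lists, the progenitor list and, added after the data were seen, the mural list. These ratios describe the libraries, were not tested and move with the marker sum as well as with the gene. Per 100 CPM of the 5 progenitor markers, Jag1 was at 4.36 to 5.65 CPM in WT, 2.32 to 2.69 in Δ306, 1.36 to 2.82 in Δ93, 4.41 to 5.95 in Δ225 and 1.49 to 4.45 in Δ104. Heyl was at 7.34 to 8.81 CPM per 100 in WT, 2.64 to 3.78 in Δ306, 3.35 to 6.07 in Δ93, 5.55 to 8.07 in Δ225 and 2.24 to 7.43 in Δ104. For both genes the Δ306 and Δ93 libraries lay below the WT libraries, and Δ104 ran from the level of Δ306 or below into the WT range. Notch3 was at 12.9 to 14.1 CPM per 100 in WT, 8.89 to 12.4 in Δ306 and 7.62 to 13.0 in Δ93, so that Δ306 lay just below WT and Δ93 overlapped it. Hey2, at 0.428 to 0.571 in WT, 0.410 to 0.799 in Δ306 and 0.296 to 0.5685 in Δ93, overlapped in both. Hes1 and Hey1, whose levels overlapped those of WT, had higher ratios where the marker sum was lower. Hes1, at 2.13 to 2.99 CPM per 100 in WT, was at 3.76 to 6.74 in Δ306 and 3.80 to 9.21 in Δ93, and Hey1, at 1.62 to 2.96 in WT, was at 4.68 to 8.36 and 3.51 to 6.44. Notch2 (12.6 to 16.9 in WT, 21.3 to 23.9 in Δ306) and Nrarp (0.153 to 0.159 in WT, 0.209 to 0.325 in Δ306) were above WT in Δ306 too. The CPM of both genes there lay below every WT library. Per 100 CPM of the 7 mural markers, Jag1 was at 10.9 to 14.0 CPM in WT, 6.69 to 9.74 in Δ306 and 3.34 to 8.10 in Δ93, and Heyl at 18.2 to 24.6, 7.62 to 13.7 and 7.91 to 16.3. Notch3, at 34.2 to 39.0 CPM per 100 in WT, 30.8 to 34.6 in Δ306 and 20.9 to 34.9 in Δ93, overlapped WT in both. The fetal Leydig sum was lower than in WT by a larger factor than any of these genes, in every Δ306 library.

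**Figure D3:**
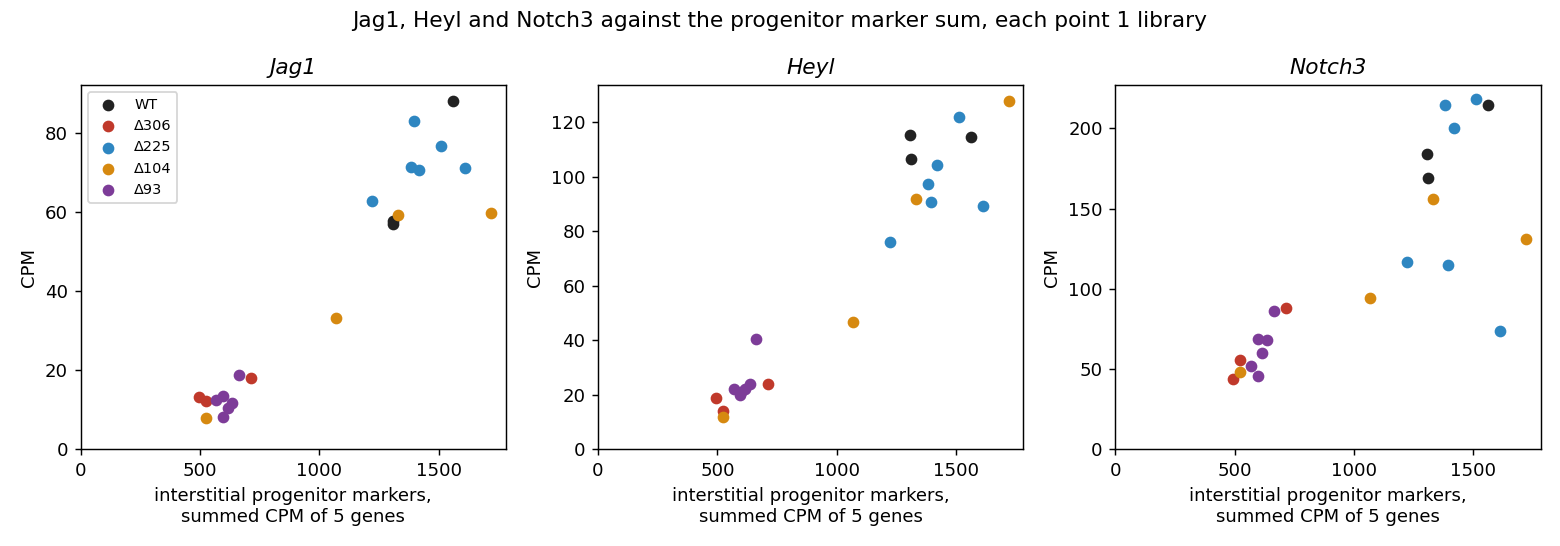
CPM of Jag1, Heyl and Notch3 against the summed CPM of 5 interstitial progenitor markers, with 1 point per library of WT and the 4 deletions. The Δ306 and Δ93 libraries, with marker sums of 494 to 714, sit at the lower left with Δ104 replicate 1, apart from the WT and Δ225 libraries, with sums of 1222 to 1611.

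In Meis1 KO gonads the calls fell on other genes, Hes1 and Hey1, both higher. Nrarp had the largest log2 fold change of the 9 genes, 0.81, and was not called. Hes1 was at 35.8, 42.0 and 37.0 CPM in WT and at 50.2, 52.8, 53.9 and 56.7 in Meis1 KO. On the log2 scale the rise was 0.48 (SE 0.08, adjusted p = 0.0389). Hey1 was at 27.2, 41.7 and 35.5 CPM in WT and at 53.9, 64.0, 53.7 and 61.0 in Meis1 KO, a rise of 0.74 on the log2 scale (SE 0.14, adjusted p = 0.0474). For both genes all 4 Meis1 KO libraries lay above all 3 WT libraries. These 2 of 9 genes were called where 1.8% of all genes were called and 1.27% were called higher.

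Both calls were close to the threshold. They were lost without WT replicate 2 or 3 and when any 1 of the 4 Meis1 KO libraries was left out, in the latter case with adjusted p-values of 0.0973 to 0.124 for Hes1 and 0.105 to 0.144 for Hey1. Without the 2 Meis1 KO libraries low in Y-linked RNA, the log2 fold changes were 0.44 for Hes1 (adjusted p = 0.387) and 0.63 for Hey1 (adjusted p = 0.393). Nrarp was at 4.40, 4.08 and 4.23 CPM in WT and at 9.05, 7.91, 7.02 and 5.65 in Meis1 KO, without overlap, and its log2 fold change of 0.81 (SE 0.18, adjusted p = 0.0648) was not called. Heyl did not overlap either, at 123, 114 and 122 CPM in WT against 110, 97.0, 103 and 94.5, and was not called (-0.24 on the log2 scale, SE 0.07, adjusted p = 0.133). DESeq2 called these 4 genes. The groups did not overlap for 4 of the 9 genes, against 19.7% of all genes.

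The receptors and the ligand did not pass the test in Meis1 KO. Notch3 was at 202 to 238 CPM against 188 to 240 in WT, and Jag1 at 62.2 to 81.9 against 59.9 to 94.5. The log2 fold changes were 0.04 for Notch3 (SE 0.10), 0.06 for Jag1 (SE 0.17), -0.15 for Notch1 (SE 0.21), -0.18 for Notch2 (SE 0.16) and 0.15 for Hey2 (SE 0.14). The median of the 9 genes was 0.06 and that of all genes 0.00. Interstitial progenitor markers summed to 1566 to 1723 CPM in Meis1 KO and 1412 to 1723 in WT, and endothelial markers to 571 to 769 and 552 to 796, ranges that overlapped. Sertoli markers summed to 1433 to 1902 CPM in Meis1 KO and 2043 to 2537 in WT, without overlap, with none of 7 called by edgeR and 5 at an unadjusted p under 0.05. Blood markers summed to 2867 to 4044 CPM against 4248 to 5476 in WT, also without overlap and with 2 of 7 called lower, and 1 of 6 pre-granulosa markers was called higher. The part of these in the rise of Hes1 and Hey1 was not tested. The WT libraries are the same in both tables but were counted differently for some genes. WT counts of Nrarp in the table of all deletions were 0.503 to 0.607 of those in the Meis1 table, and those of Notch1 0.829 to 0.85. Those of Notch2 were 0.931 to 0.948 and of Notch3 0.955 to 0.977, while those of Jag1, Hes1, Hey1, Hey2 and Heyl were within 1.00 to 1.01. Blood markers of these WT libraries summed to 13240 to 16271 CPM in the table of all deletions. Levels of Nrarp, Notch1, Notch2, Notch3 and blood markers are therefore compared within a table only.

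**Figure D4:**
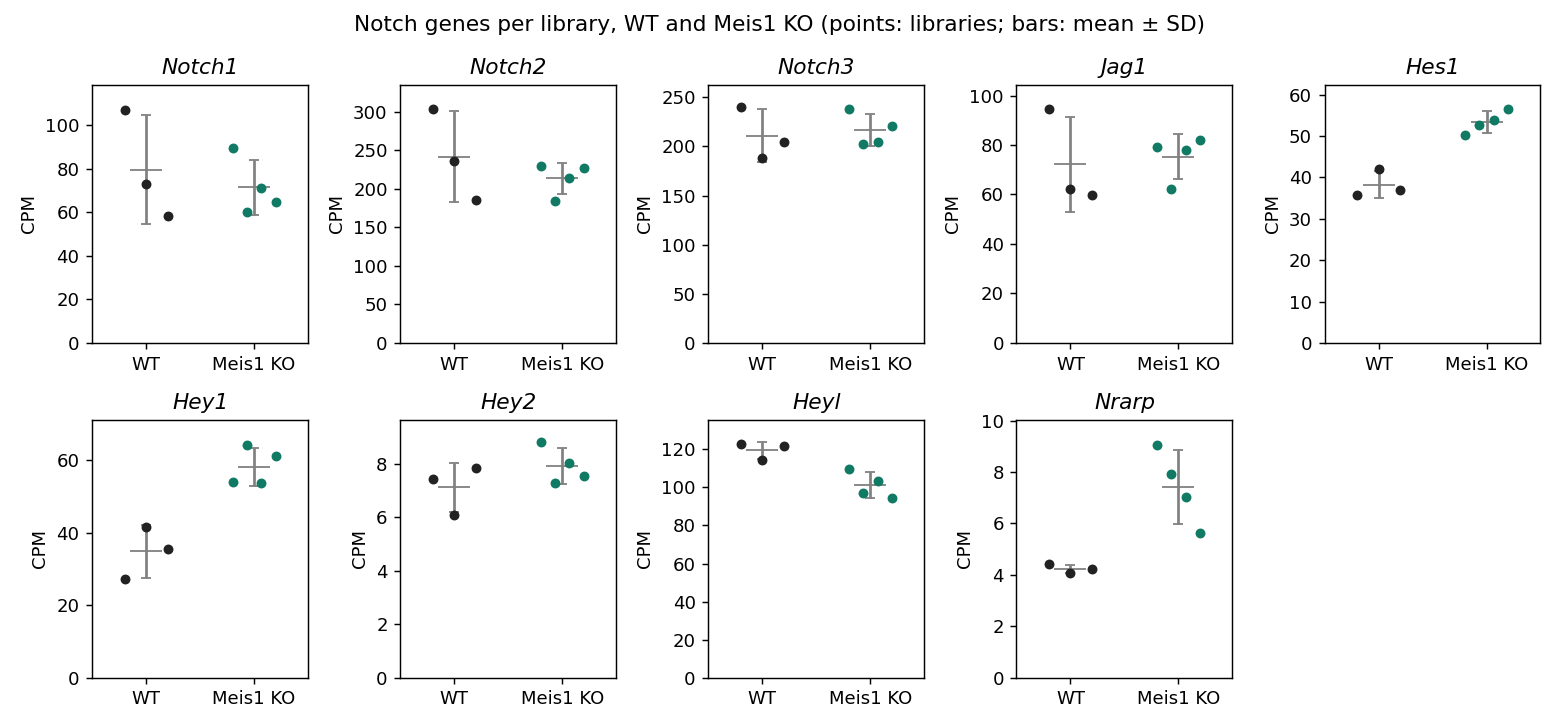
CPM of the 9 Notch genes in the 3 WT and 4 Meis1 KO libraries of the table that holds both, with 1 point per library and bars for the mean ± SD. All Meis1 KO libraries lie above all WT libraries for Hes1, Hey1 and Nrarp and below them for Heyl.

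Beyond the 9 genes, 45 further genes of the pathway were listed by role, and 43 passed the filter on low counts in the table of all deletions (Hes2 and Hes3 did not). In Δ306 against WT 2 of the 43 were called lower and none higher, and in Δ93 2 were called lower and 1 higher, where 6.43% and 14.1% of all genes were called. With only the 2 groups compared in the fit, 1 was called higher and 7 lower in Δ306, and 3 higher and 8 lower in Δ93. Dtx4, which encodes a ubiquitin ligase that acts on Notch, fell from a mean of 96.9 CPM in WT to 29.4 in Δ306 (log2 fold change -1.72, adjusted p = 0.0297) and 29.5 in Δ93 (-1.71, adjusted p = 0.00489). Ncstn, a subunit of the γ-secretase that cuts Notch, was called in Δ306 (-0.75, adjusted p = 0.0358), a call lost in 10 of 15 alternatives, and Maml2, a coactivator of the intracellular part, in Δ93 (-0.95, adjusted p = 0.0171), a call lost in 3 of 16. That of Dtx4 was lost in 6 of 15 in Δ306 and in none of 16 in Δ93. Numb, an inhibitor of Notch, rose in Δ93 from a mean of 56.8 to 95.2 CPM (0.74, adjusted p = 0.00197). Without the 4 libraries under 1 CPM of Y-linked RNA, none of the 43 was called in Δ306, and in Δ93 Numb and Dtx4 still were. In Δ225 against WT none of the 43 was called by edgeR or DESeq2 (4 at an unadjusted p under 0.05), and in Δ104 none by edgeR (5 at an unadjusted p under 0.05) and 1 by DESeq2. The median log2 fold change of the 43 genes was -0.32 in Δ306, -0.22 in Δ225, -0.20 in Δ104 and -0.17 in Δ93, against medians of 0.08, 0.04, 0.06 and 0.06 over all genes.

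Jag2, the other Jagged ligand, went the opposite way to Jag1 between deletions. Its mean was 24.1 CPM in WT, 16.4 in Δ225, 32.8 in Δ306 and 40.3 in Δ93. It was lower in Δ225 than in Δ93, a log2 difference of -1.28 (SE 0.27, adjusted p = 0.00231) called in all 19 alternatives, and lower than in Δ306 (-0.99, SE 0.32, adjusted p = 0.0457), a call lost in 9 of 17. Neither Δ306 (log2 fold change 0.44, adjusted p = 0.539) nor Δ93 (0.74, adjusted p = 0.154) passed the test against WT for Jag2. In Δ225 against Δ93, Dtx4 and Maml2 were the other way, higher in Δ225 (1.81 and 1.11), and Numb, Dtx2 and Psen2 were lower, which made 2 higher and 4 lower of 43, where 20.8% of all genes were called. The call of Psen2 was lost in 10 of 19 alternatives and that of Dtx2 in 1. In Δ225 against Δ306 6 were higher (Dtx4, Fbxw7, Maml2, Neurl1b, Rbpj and Adam17) and 2 lower (Jag2 and Numb), where 13.2% of all genes were called, and none of these was called without the 4 libraries under 1 CPM of Y-linked RNA. Rbpj itself, the DNA-binding partner, was at a mean of 86.8 CPM in WT, 78.3 in Δ306 and 95.0 in Δ93, and did not pass the test against WT in either.

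In Meis1 KO 1 of the 43 pathway genes tested there was called, where 1.8% of all genes were. It was Dll4, the Delta ligand known from arterial and sprouting endothelium. Its mean rose from 14.0 ± 2.08 CPM in WT (SD, n = 3) to 25.5 ± 3.76 in Meis1 KO (n = 4), a rise of 0.87 on the log2 scale (SE 0.15, adjusted p = 0.0389). As with Hes1 and Hey1, it was no longer called when WT replicate 2, WT replicate 3 or any Meis1 KO library was left out (adjusted p up to 0.336 over 13 alternatives). Notch4, the endothelial receptor, was at a mean of 33.1 CPM in WT and 35.5 in Meis1 KO (log2 fold change 0.10, SE 0.14). In the deletions Dll4 was at means of 6.44 (Δ306), 8.09 (Δ225), 7.07 (Δ104) and 7.49 CPM (Δ93), against 11.7 in WT of that table, and none of these passed the test.

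The genes whose pattern over the 22 libraries was nearest to each of the 9 were found among 11708 genes by the mean absolute difference of centred log2 CPM, where 0 means the same pattern. For Notch3 they were Adamts7 (0.123), Synpo (0.177) and Smtn (0.185), of which Synpo and Smtn encode actin-associated proteins of contractile cells. For Jag1 they were Enc1 (0.233), Kcnd3 (0.241) and Efna5 (0.253), and for Heyl Vnn1 (0.216), Prss35 (0.237) and Gem (0.238). Jag1 itself departed from its own mean by 1.19 on this scale on average, Heyl by 1.1 and Notch3 by 0.696. Hes1, which varied least at 0.243, was nearest to Ubl3 (0.101), and Hey1, at 0.284, to Uck2 (0.174). No other of the 9 was among the 3 genes nearest to any of them. Only genes at a mean of at least 5 CPM were searched, so Hey2 and Nrarp, below it, could not be listed. These distances are descriptions over libraries that share groups and depth.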

How the data were processed

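Counts per gene were used as the authors deposited them: 1 table of WT and 4 deletions (22 libraries), 1 of WT and Meis1 KO, and 1 of WT and Δ306. STAR 2.7.10a, Subread, featureCounts, DESeq2 and mm10 are named per the submitters' processing notes, with no settings. Whether counting used the strand of the directional kit is not given in the sources used here. The authors' deposited table of log2 fold changes served only to pair identifiers with symbols. edgeR 4.0.16 (R 4.3.3) was run with filterByExpr, TMM, the quasi-likelihood F-test and Benjamini-Hochberg adjustment over all genes of a comparison, called at 0.05. All 22 libraries entered 1 fit (22941 genes, 17 residual degrees of freedom), and the table of Meis1 KO and WT a second (16791 genes, 5 residual degrees of freedom), 11 comparisons in all. SE is the log2 fold change over the square root of F, and CPM rests on TMM-scaled library sizes. Replicate libraries differed beyond counting error in all 48 pairs. Lengths and positions come from GENCODE M21 on GRCm38. Alternatives were DESeq2 1.42.0, other scalings, no filter, a replicate block, 2-group fits, left-out libraries and a stricter threshold. Same-numbered replicates did not deviate together in every pair, so the numbers were not taken as pairs. The text names the 9 genes, called pathway genes and, by distance, the 3 nearest genes. Members and lists were chosen with earlier results of these data known. 1 gene of the pathway list and 1 progenitor marker were left out of the lists and are not reported here.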

Additional observations from a re-analysis of the deposited data

Results flagged for a closer look

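In 2 of 36 groups of 4 or more libraries tested, 1 library lay far from the rest, where chance gives about 1 in 20 groups. Notch2 was at 93.5 CPM in Δ93 replicate 4, against 146 to 167 in the other 5 libraries, a gap of 0.71 of the group's range. Replicate 4 also had the most blood marker RNA of the group (58181 CPM), and its part in the level of Notch2 was not tested. Heyl was at 40.3 CPM in Δ93 replicate 6, against 19.9 to 23.9 in the others, a gap of 0.804 of the range. The critical value for 6 libraries is 0.625.

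Deletions differed from each other in 8 tested differences of the 9 genes. Between Δ225 and Δ93 the log2 differences were 2.54 for Jag1, 1.95 for Heyl, 1.31 for Notch3 and 1.29 for Hey2. Between Δ225 and Δ306 they were 2.36 for Heyl, 2.32 for Jag1, 1.32 for Notch3 and 0.72 for Notch2.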

How the results depend on the processing

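No direction of a called gene was reversed. Of 1692 values of the 9 genes under an alternative, 1611 kept their side of the threshold, 59 lost a call and 22 gained one, and 85 of genes not called changed sign. Jag1, Heyl and Notch3 in Δ93 against WT remained called in all 16 alternatives. In Δ306 the calls of Jag1 and Heyl were lost without Δ306 replicate 3, and that of Notch3 without WT replicate 1 or 3 or Δ306 replicate 2 or 3. The cause of these changes was not tested, and leaving out a library also made the number of samples smaller. Without the 12 libraries low in Y-linked RNA no Δ93 library was left, so comparisons with Δ93 could not be run, and the lone Δ104 library was assumed to vary like the other groups. The setting without libraries under 1 CPM was chosen after seeing the data. Nrarp and Hey2 had the lowest levels of the 9 genes, and the part of depth in their results was not tested.

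Genes called under DESeq2 were 2616 in Δ306 against WT (1474 in edgeR), 781 in Δ225 against WT (48), 591 in Δ104 against WT (14), 446 in Δ225 against Δ104 (148), 555 in Δ93 against Δ104 (12), 168 in Δ93 against Δ306 (18), 381 in Δ104 against Δ306 (15) and 1408 in Meis1 KO (303). Without the filter they were 962 in Δ306 against WT, 31 in Δ104 against WT, 35 in Δ93 against Δ104 and 6 in Δ104 against Δ306, and with library totals alone 26 in Δ104 against WT and 4 in Δ104 against Δ306. Library totals moved the split of higher and lower calls in Δ306 against WT from 680 and 794 to 975 and 603, in Δ225 against Δ306 from 1484 and 1546 to 1027 and 1975, and in Δ93 against Δ306 from 3 and 15 to 1 and 24. They moved the median of all genes from -0.01 to -0.11 in Δ225 against Δ306, with Jag1 still at 2.22.

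With only the 2 groups compared, genes called were 3429 in Δ306, 1 in Δ225 and 0 in Δ104 against WT, 1945 in Δ225 against Δ306, 1 in Δ225 against Δ104, 4 in Δ93 against Δ104, 8 in Δ93 against Δ306 and 4 in Δ104 against Δ306. The separate table of WT and Δ306 gave 3101. Without libraries low in Y-linked RNA they were 456 in Δ306, 0 in Δ225 and 0 in Δ104 against WT, 718 in Δ225 against Δ306, 0 in Δ225 against Δ104, 97 in Δ104 against Δ306 and 3 in Meis1 KO. Without libraries under 1 CPM of it they were 102 in Δ306, 9 in Δ225 and 1532 in Δ93 against WT, 2097 in Δ225 against Δ93, 516 in Δ225 against Δ306, 14 in Δ225 against Δ104, 2 in Δ93 against Δ104, 2 in Δ93 against Δ306 and 0 in Δ104 against Δ306. At an adjusted p under 0.01 they were 259 in Δ306, 9 in Δ225, 3 in Δ104 and 1234 in Δ93 against WT (3229 at 0.05), 2284 in Δ225 against Δ93 (4767), 1014 in Δ225 against Δ306 (3030), 31 in Δ225 against Δ104, 3 in Δ93 against Δ104, 4 in Δ93 against Δ306, 0 in Δ104 against Δ306 and 16 in Meis1 KO.

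With the replicate block, genes called were 1638 in Δ225 and 470 in Δ104 against WT, 2 in Δ225 against Δ104, 2 in Δ93 against Δ104, 3 in Δ93 against Δ306, 2 in Δ104 against Δ306 and 32 in Meis1 KO. What the shared numbers stand for is not in the labels. Deviations of same-numbered libraries from their group means correlated at -0.31 to 0.48 over the comparisons. Under the block Notch3 in Δ225 against Δ306 was at 0.86 (adjusted p = 0.0915), Hes1 in Meis1 KO at 0.45 (0.138) and Hey1 at 0.73 (0.0902), and no other called gene of the 9 lost its call. Of the 43 pathway genes, the block called 1 higher and 4 lower in Δ225, 1 and 1 in Δ104 and 2 and 10 in Δ93 against WT, and 0 in Meis1 KO.

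Of the 9 genes, those called numbered 0 in Δ306 against WT without libraries under 1 CPM of Y-linked RNA and 3 in Δ93 against WT at 0.01. In Δ225 against Δ306 they were 2 without libraries low in Y-linked RNA, 1 without those under 1 CPM and 2 at 0.01. DESeq2 gave 2 in Δ93 against Δ104, 2 in Δ104 against Δ306 and 4 in Meis1 KO, no filter gave 1 in Δ93 against Δ104, and leaving out low Y-linked libraries gave 2 in Δ104 against Δ306. In Meis1 KO they were 1 under RLE normalization and 0 under the block, without low Y-linked libraries and at 0.01.

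Leaving out 1 library at a time gave 205 to 1310 genes in Δ306, 5 to 122 in Δ225, 1 to 528 in Δ104 and 1486 to 3572 in Δ93 against WT, 3410 to 6429 in Δ225 against Δ93, 887 to 3368 in Δ225 against Δ306, 9 to 557 in Δ225 against Δ104, 3 to 791 in Δ93 against Δ104, 3 to 123 in Δ93 against Δ306, 0 to 282 in Δ104 against Δ306 and 15 to 2204 in Meis1 KO. Of the 9 genes it gave 0 to 3 in Δ306 and 3 to 5 in Δ93 against WT, 4 to 6 in Δ225 against Δ93, 2 to 4 in Δ225 against Δ306, 0 to 2 in Δ93 against Δ104, 0 to 2 in Δ104 against Δ306 and 0 to 3 in Meis1 KO.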
